A study of Bos taurus with 10 samples.

Results

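The rumen library of a male bovine fetus of 180 d was compared with 9 libraries of postnatal tissues at single CG sites, and the sites where the fetal rumen lay below or above every other tissue were described. Its level lay below the median of the other 9 at 32.8 % of the sites and above it at 26.7 %, and the shortfall was largest at sites where the other tissues held low to intermediate levels. Of 51227 autosomal CG sites with at least 8 reads in all 10 libraries, matched by chromosome, position and strand, 1728 (3.37 %) were lower in the rumen than in every other tissue and 2646 (5.17 %) were higher. Counted in the same way, the other 9 libraries had 549 to 8310 lower and 2824 to 10152 higher sites. The rumen thus had the fewest higher sites, and only testis had more lower than higher ones. These shared sites were 36.4 % of the 140858 autosomal CG sites covered in the rumen and 11.3 % of the 452664 covered in any library.

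The other tissues were skeletal muscle near the caesarian, whole testes, mammary parenchyma, intercaruncular uterus, frontal cortex, abomasum, ileum, nucleated blood cells and the mammary gland at 90 d of lactation. Per the study's sample list, the testis came from an adult male, the muscle, uterus, blood cells and lactating gland from adult females, and the mammary parenchyma, cortex, abomasum and ileum from juvenile females. Each tissue was 1 library without a replicate, no treatment is named, and the sources used here do not say which tissues came from the same animal. With 1 library, tissue, stage, sex and animal cannot be told apart, and every test between libraries compares those libraries. Bulk tissue was sequenced, so a level is a mean over cell types, and a changed mixture of cells and a changed level within a cell type cannot be told apart.

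Methylation of the cytosine in CG dinucleotides is the main DNA methylation of mammals, and it is copied to both strands when DNA is replicated. Dense clusters of CGs, called CG islands, are mostly unmethylated, while CGs elsewhere are mostly methylated, and a site at an intermediate level is methylated in some molecules only. Reduced representation bisulphite sequencing (RRBS) cuts DNA with MspI at CCGG, whether methylated or not, and reads the ends of short fragments, so it favours CG-dense DNA. The rumen is the fermentation chamber of the ruminant forestomach, lined by a stratified squamous epithelium, and it is not yet at work before birth.

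Sites beyond every other tissue often lay together on 1 MspI fragment, and the fragments that carried the most such sites are printed here because their level, strand by strand, is described afterwards. A run was a series of sites that lay at least 10 points below, or above, the nearest of the other 9 tissues, each at most 500 bp from the next on UMD3.1. The letters were put together from the 5 letters deposited around each cytosine and are those of the forward strand, with the CGs of the chosen sites in capitals. The genes, exons and introns at these positions were not analysed here. The runs with the most lower sites were as follows.
Lower run 1, chr21:69814445-69814496: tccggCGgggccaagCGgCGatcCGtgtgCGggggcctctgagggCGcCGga
Lower run 2, chr7:45510032-45510080: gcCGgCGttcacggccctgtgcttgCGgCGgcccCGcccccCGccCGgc
Lower run 3, chr18:64271084-64271132: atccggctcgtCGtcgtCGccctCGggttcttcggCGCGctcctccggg
Lower run 4, chr22:52813966-52814029: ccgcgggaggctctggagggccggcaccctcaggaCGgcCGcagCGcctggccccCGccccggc
Lower run 5, chr19:8922668-8922715: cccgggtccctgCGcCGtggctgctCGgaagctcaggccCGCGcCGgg
Lower run 6, chr17:73671189-73671241: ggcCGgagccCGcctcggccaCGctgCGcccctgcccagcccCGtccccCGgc
Lower run 9, chr11:105652105-105652153: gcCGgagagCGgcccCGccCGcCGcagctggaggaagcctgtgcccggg

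Lower run 9 stood ninth by its number of sites and is shown because it held the lower sites that passed the test in every pair. Each of the other 6 stretches held between 7 and 10 CGs in 48 to 64 bases, and their share of G and C ran from 73.5 % to 86.8 %. The runs with the most higher sites were these, of which higher run 2 had 1 further chosen site, at chr5:117007458, outside the stretch shown.
Higher run 1, chr13:54804610-54804662: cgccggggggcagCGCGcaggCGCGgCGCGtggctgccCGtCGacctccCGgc
Higher run 2, chr5:117007353-117007405: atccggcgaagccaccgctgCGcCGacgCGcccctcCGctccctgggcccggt
Higher run 3, chr13:70071509-70071559: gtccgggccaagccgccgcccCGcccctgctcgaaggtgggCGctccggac
Higher run 4, chr5:111921991-111922041: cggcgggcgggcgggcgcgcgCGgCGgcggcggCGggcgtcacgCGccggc
Higher run 5, chr7:32047414-32047465: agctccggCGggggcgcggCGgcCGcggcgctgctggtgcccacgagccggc

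Depth differed between libraries, and most of all for the abomasum. The reads summed over cytosines ran from 16125651 in the abomasum to 40089443 in the testis, with 23294310 in the rumen. At the shared sites the median coverage was 37 reads in the rumen, 12 in the abomasum and 32 to 50 in the other 8 libraries. PCR copies of a read were not told apart, so confidence intervals and limits cover counting error only. The non-CG level, which rises with incomplete bisulphite conversion, was 1.41 % in the rumen and 1.38 % ± 0.0684 (SD, n = 9) in the others (exact permutation test, two-sided, p = 0.8).

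The mean level of the shared CG sites in the fetal rumen lay within the range of the other tissues. It was 27.3 % in the rumen and 28.3 % ± 2.11 (SD, n = 9) in the others, a difference of -1.01 points (exact permutation test of 1 library against 9, two-sided, p = 0.6). Testis at 24.1 % and frontal cortex at 27.0 % lay below the rumen, and blood cells were highest at 31.8 %. The size of the rumen's difference depended on the setting. It was -2.74 points when levels were weighted by coverage and -0.469 at sites with at least 20 reads in all libraries. The smallest p that 1 library against 9 can give is 0.1, so no measure of this kind could pass 0.05, and after Benjamini-Hochberg adjustment over 5 such measures each p was at least 0.75.

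The shares of sites by level class are given as a description, since none of these tests could pass. Sites below 20 % made up 66.7 % of the rumen's sites and 65.1 % ± 1.14 (SD, n = 9) of those of the others (exact permutation p = 0.3), and testis alone, at 66.8 %, held a larger share. Sites above 80 % made up 19.5 % in the rumen against 19.7 % ± 3.60 (SD, n = 9), with exact permutation p = 1. Sites at 10 to 50 %, a class chosen after the levels had been seen, were scarcest in the rumen of all 10 libraries. They made up 6.84 % of its sites against 9.14 % ± 1.55 (SD, n = 9) in the others (exact permutation p = 0.2), with the lactating gland next at 7.28 % and testis highest at 11.7 %. At sites with at least 20 reads in all libraries the rumen held 9.65 % and the lactating gland 8.74 %, so that the share was then lowest in the lactating gland.

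Sites were then grouped by the median level of the other 9 tissues, a measure that did not use the rumen. At 33555 sites where that median was below 20 %, the rumen differed from it by -0.027 points on average, the lowest value when each of the 10 libraries was set against its own 9 others. The sign of this value turned after thinning, to +0.428, and without the uterus, ileum or blood cells, to at most +0.070. At 7027 sites between 20 and 80 % the mean difference was -4.54 points, while testis at -13.5 and frontal cortex at -6.26 were lower. At 10645 sites above 80 % it was -2.34 points, and 4 libraries were lower. The rumen was the lowest library in the class below 20 % and not in the classes above it.

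The shift was largest where the other tissues were partly methylated at a low level. In bins of 10 points of that median, the rumen's mean difference was -0.90 points above 0 and up to 10 %, -4.81 at 10 to 20 %, -6.11 at 20 to 30 % and -7.09 at 30 to 40 %, and in each of these bins it was the lowest of the 10 libraries. It was -6.00 at 40 to 50 % and -5.55 at 50 to 60 %, where testis was lower, and it narrowed to -2.26 at 90 to 100 %. Of 1397 sites at 10 to 20 %, 79.7 % were lower in the rumen than the median of the others. Testis came next, at 72.7 % of its own sites of that bin.

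**Figure D1:**
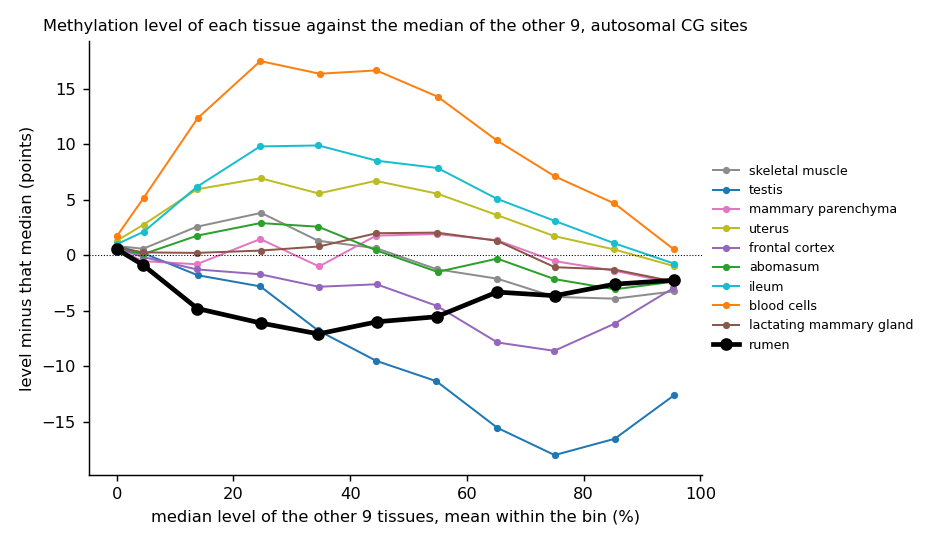
Mean difference in methylation level, in percentage points, between each tissue and the median of its other 9 tissues (y axis) against that median in bins of 10 points (x axis, %); each line is 1 library, the rumen in black. The rumen is the lowest line up to 40 % and reaches -7.09 points at 30 to 40 %, whereas testis is lowest above it and blood cells are highest throughout.

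Over the 3155 sites with a median of 10 to 50 % in the other tissues, the mean level was 19.3 % in the rumen and the mean of the medians was 25.03 %. The rumen lay below the median at 74.5 % of these sites. Testis lay below its own median at 73.1 % of its sites of that class, and frontal cortex at 63.9 %. Over all shared sites the rumen's share was 32.8 %, but these include 23911 sites with a median of 0, where it cannot be lower. In the class of 10 to 50 % the rumen's mean difference was -5.68 points, against -4.25 for testis and +15.0 for blood cells, each measured at its own sites of that class. With the reads of every library thinned to the lowest coverage at each site the difference was -5.25 points and still the lowest of the 10 libraries. At the 7147 sites with at least 20 reads in all libraries it was -5.21, and testis was then lower at -9.52.

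Across the shared sites the rumen lay below every other tissue by at least 10 points at 329 sites, 0.642 % of those examined, and above every other tissue by as much at 95, or 0.185 %. Among the 10 libraries the rumen had the fewest higher sites of this kind, and by at least 25 points it had 3, again the fewest, against 42 lower ones. Testis had 4732 lower sites and blood cells 1485 higher sites, and the other libraries held 34 to 496 lower and 135 to 757 higher ones. The ratio of lower to higher sites was 3.46 in the rumen and 18.3 in testis, and no other library exceeded 1.91.

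These counts moved with depth. After thinning, the rumen had 580 lower and 549 higher sites by 10 points, the higher ones still the fewest of the 10 libraries, and at sites with at least 20 reads in all libraries it had 23 and 17. At that coverage frontal cortex, with 70 lower and 12 higher sites, and testis, with 2092 and 16, had fewer higher sites than the rumen. The ratio of lower to higher sites was then larger in frontal cortex than in the rumen. With at least 10 reads there were 219 lower and 69 higher sites, and with both strands of a CG summed 78 and 20. Lower sites outnumbered higher ones in each of these settings, by little after thinning and at 20 reads. Without testis there were 562 lower sites. Just outside the limit, with a gap of 5 to 10 points, lay 359 lower and 299 higher sites.

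**Figure D2:**
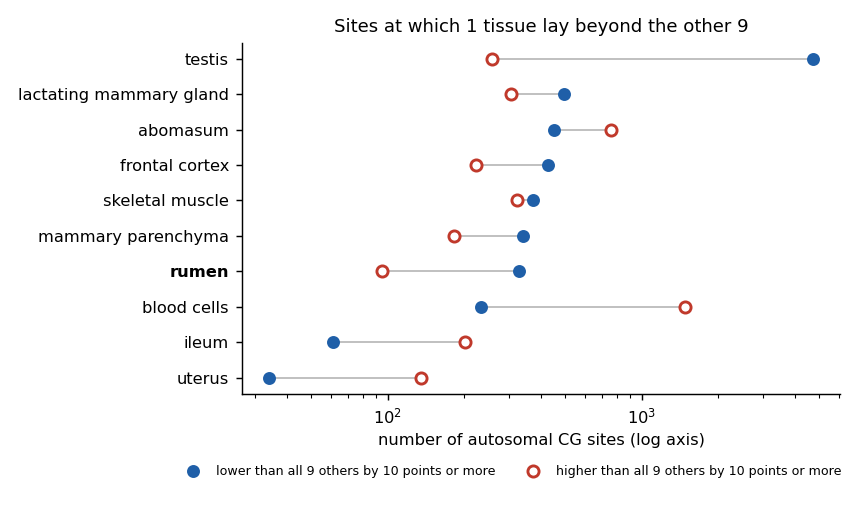
Number of autosomal CG sites (x axis, log scale) at which each tissue (y axis, 1 library each) lay at least 10 points below (filled) or above (open) all 9 others. The rumen had 329 lower and 95 higher sites, the latter the lowest count of the 10 libraries, while testis reached 4732 lower and blood cells 1485 higher sites.

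At the 329 lower sites the mean level was 38.2 % in the rumen and ran from 66.5 % in the abomasum to 83.0 % in blood cells. Since the sites were chosen for these levels, the gap is a description. Most of them were not empty in the rumen, which held 20 to 80 % at 68.4 % of them and 0 % at 16 sites. Testis was the next lowest tissue at 72 of the 329 sites, the abomasum at 65, mammary parenchyma at 51 and frontal cortex at 46, so no single tissue was next lowest at most of them. The ileum, another tissue of the digestive tract, was the next lowest at 10. Over all shared sites testis was lower than every other tissue at 8310, the abomasum at 2419 and the ileum at 603. The counts of the next lowest tissue are therefore not a measure of likeness to the rumen.

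At the 95 higher sites the mean level was 60.9 % in the rumen, and the mean of the medians of the other 9 was 36.8 %. These sites were more scattered and less well covered than the lower ones. They fell into 70 runs of which 60 were single sites, and the 10th percentile of their rumen coverage was 10 reads, where it was 20 at the lower sites.

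**Figure D3:**
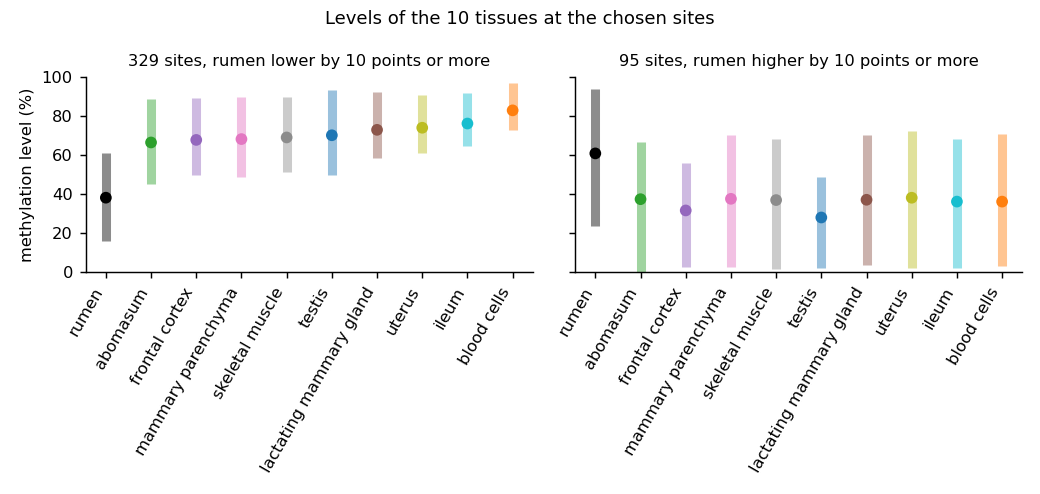
Mean methylation level in % (points) with the range from the lower to the upper quartile over sites (bars) in each of the 10 libraries, at the 329 sites chosen because the rumen was lower than every other tissue by at least 10 points (left) and at the 95 chosen because it was higher (right). At the left the rumen mean is 38.2 % and the others run from 66.5 to 83.0 %; at the right it is 60.9 %.

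The cytosine on the opposite strand of the same CG is read from other molecules and was not used to choose the site in question. It could be a chosen site itself, as in lower run 4, and such a CG counts once for each strand. Of the 329 lower sites, 164 had that cytosine covered in all 10 libraries. It was also lower than in every other tissue at 95 of them, 57.9 %, against 3.15 % of all sites with both strands covered. It lay below the median of the others at 155, or 94.5 %, against 29.6 %. Both shares of all sites include those with a median of 0, where the rumen cannot be lower. Among all shared sites the rumen lay below the median at 61.5 % of those with a median of 20 to 80 % and at 54.6 % of those above 80 %. On the opposite strand of the 164 sites the rumen averaged 44.3 % and the median of the others 68.8 %, a difference of -24.5 points, where it was -33.0 points on the chosen strand.

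The higher sites were matched by the opposite strand less often. Of 42 with that strand covered, it was also higher than in every other tissue at 14, or 33.3 %, against 5.19 % of all sites, and above the median at 29, or 69.0 %, against 23.2 %. Among all shared sites with a median of 20 to 80 % the rumen lay above it at 37.7 %. On the opposite strand of the 42 sites the rumen averaged 45.2 % and the median of the others 36.4 %. Without a minimum gap, 316 of 813 lower sites and 158 of 1341 higher sites were also the extreme on the opposite strand. For the higher sites this was 11.8 %, and 30.5 % of them lay above the median there.

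The 329 lower sites lay in 155 runs on 28 of the 29 autosomes. Of these runs 102 were single sites, and 42 held 3 or more sites and 205 sites in all. Chromosome 7 carried 36 of the sites, which was 1.62 % of its shared sites, and chromosome 28 carried 0. In the last 10 % of their chromosome, measured to the highest position covered, lay 43.2 % of the lower sites, against 28.1 % of all shared sites and 27.8 % of the other sites with a median of 20 to 90 %.

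CG islands that the study listed as differentially methylated held 57.4 % of the lower sites and 18.97 % of all shared sites. Other sites with a median of 20 to 90 % lay in these islands as often, at 55.5 %. The list was drawn up on these same libraries and is not independent evidence. At the MspI cut site itself lay 11.6 % of the lower sites and 12.9 % of all shared sites.

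The 42 runs of 3 or more lower sites spanned a median of 32 bp, less than the 49 bases of a read, so that their sites share molecules and are not independent. They also held 162 shared sites that did not reach the 10 points, and the rumen was below the median of the others at 158 of these. Among all shared sites it was below at 61.5 % of those with a median of 20 to 80 % and at 54.6 % of those above 80 %. The 162 sites lie in the same short stretches as the chosen ones, so this count is not independent of the choice. In 25 runs both strands were covered by shared sites. The rumen mean was below every other tissue on both strands in 18 of them and on 1 strand in the other 7. In 16 runs sites had been chosen on both strands. There the place of the rumen on each strand follows largely from the choice.

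Lower run 1 held the most sites, with 11 of its 13 shared sites lower by at least 10 points. Over its sites the mean level was 22.2 % in the rumen, and in the others it ran from 43.1 % in the abomasum through a median of 61.8 % to 89.7 % in testis. The forward strand gave 22.4 % and the reverse strand 21.9 % in the rumen, below the 40.8 % and 45.2 % that were the lowest of the others. Its chosen sites lay on both strands, 5 forward and 6 reverse. The rumen's place below the others on each strand therefore follows largely from the choice. The median coverage of the rumen was 21 reads.

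Lower run 2 and lower run 4 had the lowest mean levels in the rumen of the 6 runs with the most lower sites. In lower run 2, 9 of 14 sites were chosen, and the mean was 11.4 % in the rumen against 35.3 % in testis, a median of 44.4 % and 94.6 % in blood cells. In lower run 4, all 8 sites were chosen, and the mean was 15.1 % against 42.8 % in frontal cortex, a median of 56.7 % and 90.3 % in blood cells. Both lay in islands of the study's list, and the range of the other tissues did not overlap with the rumen on either strand. Sites of both runs had been chosen on both strands, so this too follows largely from the choice. Blood cells were the highest tissue in both runs.

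Lower run 3, lower run 5 and lower run 6 were of another kind, with high levels in every other tissue and a lower, intermediate to high level in the rumen. The rumen averaged 75.4 % in lower run 3, where the others spanned 89.1 to 96.1 %. It averaged 60.5 % in lower run 5, where they spanned 79.1 to 91.9 %, and 69.97 % in lower run 6, where they spanned 87.3 to 96.6 %. Within these runs the shortfall was uneven. In lower run 3, the sites at the start held 50 % and 51.9 % in the rumen, and those 3 and 4 bp further held 95 % and 92.6 %.

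Lower run 8, on chromosome 15, held the most shared sites of the runs, 28 in 79 bp, of which 7 were chosen. The rumen averaged 56.4 % over the 28 sites and testis, the next lowest, 64.3 %, while the median of the others was 80.5 % and blood cells reached 95.1 %. At all 21 sites that were not chosen the rumen was below the median of the others, but they lie in the same stretch as the chosen ones. Lower run 7, on chromosome 25, was at 63.1 % in the rumen, 77.8 % in mammary parenchyma as the next lowest and 97.5 % in testis. Lower run 11, on chromosome 20, was read on the reverse strand alone and was at 11.1 % in the rumen, 29.8 % in the lactating gland and 98.0 % in blood cells. Over all 42 runs the median of the rumen's levels was 42.3 %, and that of the medians of the other tissues was 74.1 %.

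**Figure D4:**
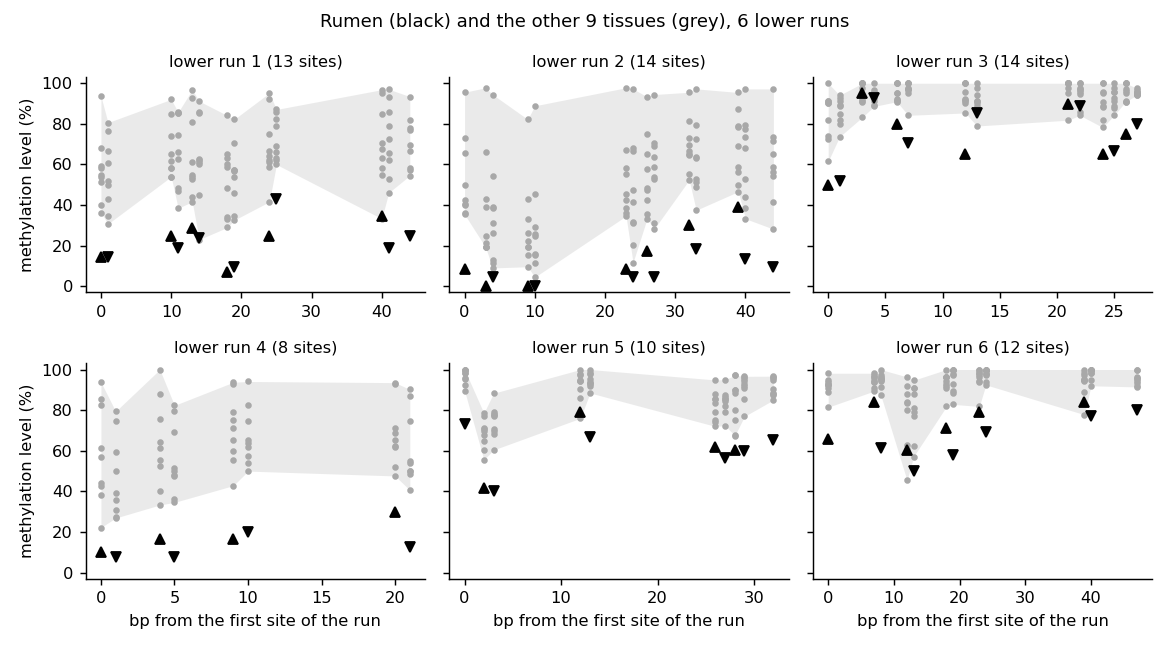
Methylation level in % (y axis) at each shared site of the 6 runs with the most lower sites, against the distance in bp from the first site of the run (x axis); black triangles are the rumen, pointing up on the forward and down on the reverse strand, grey points are the other 9 tissues and the grey band is their range. Rumen levels in lower runs 1, 2 and 4 lie mostly below 30 %, whereas in lower runs 3, 5 and 6 they lie mostly between 50 and 85 %, under other tissues that are mostly above 80 %.

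Of the 772 autosomal islands in the study's list, 646 had at least 5 shared sites. The rumen was the lowest of the 10 libraries in 86 of them and the highest in 16, while testis was the lowest in 338. By at least 10 points the rumen was lowest in 17 islands and highest in 0. Testis was lowest by as much in 225 islands and the remaining libraries in 0 to 12. The uterus too was highest by as much in 0, and mammary parenchyma in 1. The mean over the 646 islands was 56.5 % in the rumen, between testis at 48.0 % and frontal cortex at 57.7 %.

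The island with the largest gap was chr17:55935693-55935958, with 26.2 % in the rumen, 57.3 % in frontal cortex as the next lowest and 93.9 % in testis. Its 6 shared sites were all on the forward strand. In chr20:62725085-62725800, over 7 shared sites, the rumen held 13.4 %, the lactating gland 29.4 % and blood cells 98.0 %. In chr29:49452580-49454378, over 6, it held 21.4 %, the lactating gland 34.1 % and frontal cortex 90.9 %. In chr7:53651880-53652915, over 7, the 9 others lay closer together, from 41.2 % in testis to 60.3 % in the lactating gland, and the rumen was at 19.4 %. In chr27:33458220-33459482, over 14 shared sites, the rumen held 36.5 %, testis 51.1 % and mammary parenchyma 90.9 %. The shared sites of these islands were nearly all those of lower runs 10, 11, 23, 15 and 12, in the order named. These runs spanned 27 to 42 bp, so the islands repeat the runs and rest on stretches shorter than a read. Apart from chr7:53651880-53652915, the islands named here differed widely among the other tissues. They were chosen because the rumen lay at least 10 points below every other tissue, so its place below their range follows from the choice.

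The higher runs were fewer and rested more on 1 strand. Of 5 runs with 3 or more sites, 4 had both strands covered, and in 2 of these the rumen was above every other tissue on both. Sites had been chosen on both strands in 1 run. In higher run 1, all 9 chosen sites were on the reverse strand, where the rumen averaged 24.7 % and the others 0.478 to 2.65 %. On the forward strand of the same CGs the rumen averaged 0.529 %, within the range of the others, 0 to 1.13 %. Whether these reads came from few molecules by PCR was not tested.

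Higher run 3 was higher on both strands, at 18.8 % and 18.3 % in the rumen, and the highest of the others there were 7.64 % and 7.99 %. Its chosen sites lay on both strands, 2 on each. Higher run 2 averaged 12.7 % in the rumen against 6.74 % in blood cells as the next highest. Higher run 4 was covered on the reverse strand and averaged 10.0 % against 4.04 % in the uterus. In higher run 5 the rumen averaged 40.1 %, but the abomasum averaged 43.9 % over all 9 shared sites, so the rumen was the extreme at 3 chosen sites alone. Apart from higher run 5, these runs were nearly unmethylated in the other tissues, with medians of 0.446 to 2.01 %.

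**Figure D5:**
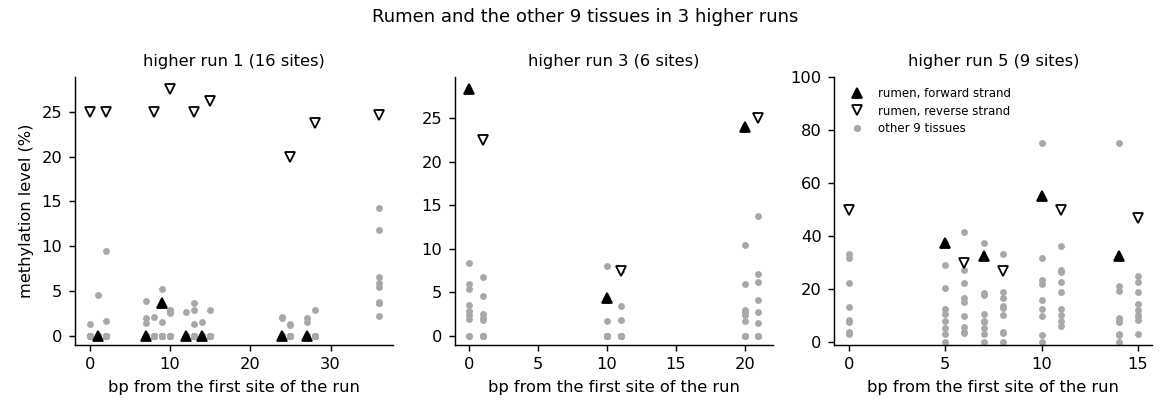
Methylation level in % (y axis, scaled separately in each panel) at the shared sites of 3 higher runs against the distance in bp from the first site of the run (x axis); triangles are the rumen, filled on the forward and open on the reverse strand, and grey points are the other 9 tissues. In higher run 1 the reverse strand averages 24.7 % and the forward strand 0.529 % in the rumen, while both strands are raised in higher run 3.

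The reads of the rumen were also compared with those of each other tissue at every site. A differentially methylated cytosine (DMC) had q below 0.01 when methylated and unmethylated reads were set against each other in Fisher's exact test, adjusted by Benjamini-Hochberg over the sites of that pair, and a difference of at least 25 points. The rumen was lower than the ileum at 841 DMCs, 1.64 % of the sites tested, and higher at 139, 0.271 %. It was lower than blood cells at 1658 (3.24 %) and higher at 268 (0.523 %), and lower than the uterus at 434 (0.847 %) and higher at 70 (0.137 %). Against these 3 tissues the DMCs were mostly lower in the rumen.

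Against testis the direction was the opposite, with 398 DMCs lower (0.777 %) and 1951 higher in the rumen (3.81 %). The lactating gland gave 486 lower (0.949 %) and 348 higher (0.679 %), and skeletal muscle 274 lower (0.535 %) and 175 higher (0.342 %). Numbers were nearly even against frontal cortex, with 286 lower (0.558 %) and 258 higher (0.504 %), and against mammary parenchyma, with 155 lower (0.303 %) and 168 higher (0.328 %). The fewest DMCs were found with the abomasum, 82 lower (0.16 %) and 84 higher (0.164 %), in the pair with the lowest coverage. Over the pairs 57.1 % of the DMCs were lower in the rumen, but 48.1 % without blood cells and 37.4 % at sites with at least 20 reads in all libraries. The pairs share the rumen library and are not independent of each other.

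A DMC of the rumen in all 9 pairs, in the same direction, was found at 4 of the 51227 sites, 2 lower and 2 higher, each 0.0039 % of the sites. These calls depended on the settings: thinned reads or a minimum of 40 points left 0, Benjamini-Yekutieli adjustment left 0 lower and 2 higher, and summed strands left 2 lower and 0 higher. A further 7 sites were lower in 8 pairs, and 6 of these missed the abomasum. Without the abomasum the lower sites numbered 8.

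Both lower DMCs were in lower run 9, 13 bp apart on the forward strand of chromosome 11. At chr11:105652114, 3 of 36 rumen reads were methylated, 8.33 % (95 % Wilson interval 2.87 to 21.8 %). The other tissues held 44.8 % in frontal cortex, a median of 78.9 % and 94.4 % in testis, and the largest q of the 9 pairs was 0.00741. At chr11:105652127, 0 of 36 rumen reads were methylated, which allows a level of up to 8.33 %. Frontal cortex was again the next lowest at 39.7 %, the median was 64.2 %, and the largest q was 0.00284. The rumen lay below all 9 other libraries at both sites.

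The strands of lower run 9 differed in which tissue was low. On the forward strand the rumen averaged 6.67 % and the lowest of the others was 46.6 %. On the reverse strand, at 22 to 23 reads, the rumen averaged 15.5 % and frontal cortex 14.4 %, so the rumen was no longer the lowest there. The other 8 tissues had a mean of 55.9 % or more over both strands, with blood cells at 57.6 % and the lactating gland at 83.4 %.

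The higher DMCs lay in these stretches, printed to show the site in capitals beside another CG.
Higher DMC, chr8:44636001-44636022: tagacgtagcctCGtgggtgct
Higher DMC, chr9:84983519-84983532: ttcaCGaccttccg
At chr8:44636014, on the reverse strand, 225 of 226 rumen reads were methylated, 99.6 % (95 % Wilson interval 97.5 to 99.9 %). The other tissues ran from 35.8 % in testis through a median of 65.8 % to 74.2 % in the uterus, with a largest q of 1.93e-18. The CG 8 bp away on the same strand was at 62.0 % in the rumen, within the 33.9 to 77.8 % of the others.

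At chr9:84983523, on the forward strand, 120 of 137 rumen reads were methylated, 87.6 %, against 24.0 to 55.1 % in the others, with a median of 40.8 % and a largest q of 3.49e-09. The CG 31 bp away was at 28.7 % in the rumen, close to the median of the others, 27.1 %. At both positions the CG compared on the same strand lay within the range of the other tissues. The CG 3′ of the chr9 site in the printed stretch was not among the shared sites.

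At these higher DMCs the coverage of the rumen fell as well. At chr8:44636014 it had 226 reads and 358 at the neighbouring CG, a ratio of 0.631, while the ratio was 0.932 to 0.993 in the other 9 libraries. At chr9:84983523 it had 137 and 272 reads, a ratio of 0.504, against 1 to 1.02. At both lower DMCs the ratio was 1. A drop of the rumen's ratio to under 0.75 of the median ratio of the others was found at 7 of 86 higher sites by 10 points that had a neighbour within 40 bp, 8.14 %, against 0.546 % of 50144 shared sites and 3 of 325 lower sites. Whether the fetus carried another base at these positions was not tested.

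By the study's sample list the tissues are of 3 stages, and the 329 lower sites were also averaged by stage, as a description. The 4 juvenile tissues had a mean of 69.7 % and the 5 adult tissues of 73.9 %, a difference of 4.16 points where the SD of the 9 tissues was 5.204. Without blood cells the adult mean was 71.6 %, 1.88 points above the juvenile one. With blood cells included, the adult mean was above the juvenile one in 35 of the 42 runs of lower sites. This count was not made without blood cells or at other sites, so whether it is unusual was not tested. Over all shared sites the juvenile mean was 28.2 % and the adult mean 28.4 %, and without blood cells the adult mean was 27.5 %, below the juvenile one. Stage is tied to tissue here and cannot be told apart from it.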

How the data were processed

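RRBS was done on 10 bovine tissues with 1 library each, of which the rumen was compared with the other 9. The authors aligned trimmed reads to UMD3.1 with a pipeline based on SOAPaligner 2.21 and deposited, for cytosines with at least 8 reads, the number of reads as a count without normalization, with 65535 as the highest count of each library. The deposited methylation level is a fraction, methylated over all reads, and is printed as a percentage. Stage and sex came from the study's sample list, tissues from the labels.

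Methylated reads were the level multiplied by the reads. Levels were averaged over sites without weighting. Differences of 1 library from 9 were tested by exact permutation, two-sided, and pairs by Fisher's exact test with Benjamini-Hochberg adjustment over all shared sites, with the study's thresholds of q below 0.01 and 25 points. Named were the DMCs of all 9 pairs, and, in place of runs of such DMCs, which were too few, the 6 lower and all 5 higher runs with the most sites beyond every other tissue by 10 points, with at least 3 sites. This second choice, the class of 10 to 50 %, the comparison of coverage between neighbouring sites and the leaving out of tissues other than testis and abomasum were added after the values were seen. The sites and lists were chosen with earlier results of these data known. Gene lists were not used, since no annotation of UMD3.1 was at hand. Listed islands were taken by coordinates from the study. The alternatives were minimums of 10 and 20 reads, reads thinned to the lowest coverage at a site, both strands summed and, for the mean level, weighting by coverage. Further ones were other differences and adjustment, other joining distances of runs (200 and 1000 bp) and leaving out each other tissue. The software was SciPy 1.17.1 and NumPy 2.4.6 for the tests, Numba 0.67.0, pandas 2.3.3 for the tables and matplotlib 3.10.9 for the plots, under Python 3.11.15, with a random seed of 1. The steps were tested on simulated data. Intervals are 95 % Wilson intervals, and 0 reads allow a level of 3 reads of the total.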

Additional observations from a re-analysis of the deposited data

Results flagged for a closer look

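Over 12 measures, the highest and lowest of the 10 libraries were examined for a gap to the next that was large against the whole range by Dixon's test. The tissues are not replicates of a group, and chance alone would flag about 1 in 20 such sets. In 4 measures a library stood apart. Testis had 4732 sites lower than every other tissue by 10 points, and its mean shift at sites with a median above 80 % in the others was -13.8 points, where that of the rumen was -2.34. Blood cells had 1485 sites higher than every other tissue by 10 points. The rumen had a median coverage of X-chromosome CG sites that was 0.615 of that of autosomal ones, against 0.879 to 1.11 in the other 9 libraries. The library of the adult male testis was at 0.938. Only cytosines with at least 8 reads were available, and the median over all of them was 14 reads in testis and 24 in the rumen. How far this minimum moved the ratio in each library was not tested.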

How the results depend on the processing

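No paired analysis was possible because each tissue is 1 library and its replicate number only names it. Of the values recomputed under an alternative, 195 were rated the same, 33 moved and 3 reversed. Mean levels and shares of sites were rated the same when the sign of the difference held. The share of DMCs was so rated when it stayed on its side of an even split, and counts within a fixed factor. Shifts by class needed only to move by less than the SD of the other 9 libraries. The shift below 20 %, whose sign turned, was thus rated the same. With at least 10 reads the lower sites by 10 points numbered 219. With at least 20 reads there were 275 lower and 263 higher sites, 23 and 17 by 10 points, a median of 173 DMCs per pair, and 37.4 % of the DMCs were lower in the rumen instead of 57.1 %. After thinning these were 1056 and 1299 sites, 580 and 549 by 10 points, 60 DMCs and 38.8 %, with 0 DMCs in all 9 pairs in either direction. With both strands summed there were 542 lower and 713 higher CGs, 78 and 20 by 10 points, 324 DMCs per pair and 2 DMCs in all pairs, with 0 higher. For DMCs in all 9 pairs, 40 points left 0 in either direction, no minimum difference gave 8 with 5 lower, and Benjamini-Yekutieli adjustment gave 2 with 0 lower and a median of 289 DMCs per pair. The cause of these changes was not tested beyond the fewer sites and reads that the alternatives leave.

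Leaving out 1 other tissue at a time gave 1794 to 2804 lower sites, with 336 to 562 of them by 10 points, both highest without testis, and 2831 to 3197 higher sites, with 101 to 142 by 10 points. DMCs in all pairs numbered 4 to 10, of which 2 to 8 were lower, most without the abomasum, and 2 higher. The share of DMCs lower in the rumen was 48.1 % without blood cells and 73.6 % without testis. The shift at a median of 10 to 50 % stayed between -6.59 and -5.05 points. Depth limits the pair with the abomasum most, at a median of 12 reads.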

Other observations

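The X chromosome entered no comparison, and its values are given here. CG sites on X had a mean level of 24.0 % in the fetal rumen and 31.9 % in the testis, and 38.5 to 49.4 % in the 8 female libraries. X held 1.73 % of the CG sites covered in the rumen, 1.48 % in the testis and 2.25 to 2.76 % in the female libraries. In level and in share, both male libraries lay below all female ones.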
